A study of Homo sapiens with 6 samples.

Results

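The genes described here are zinc finger genes of the primate-expanded cluster at 19p12, listed by name: 36 genes, of which 33 had a row of their own on the array, out of 18404 genes tested. The RefSeq gene table placed all 36 on chromosome 19, in 1 stretch that runs from ZNF101 to ZNF254. That table holds no cytogenetic bands, so the band name was not checked. Where a gene had several rows, its row was chosen by its mean level over the 6 arrays, the highest being kept. The genes themselves were chosen by name and position, with the differences between BIX01294 and DMSO on these same arrays known. Its counts and adjusted p-values are therefore given as a description and support no claim about the cluster.

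The cells were BE(2)-C, an established neuroblastoma cell line of human origin that carries MYCN amplification. They were grown in DMEM with dialyzed serum. The groups were 3 samples that received 0.05% DMSO, the solvent, for 24 h and 3 that received 5 µM BIX01294 for 24 h, each measured on 1 Affymetrix gene array. The labels give no DMSO content for the treated samples, and all 6 samples are the same line, so the data describe 1 line. The series text calls the 3 samples of a treatment independent, but says nothing of separate days. The p-values weigh each difference against the spread between these samples, moderated by that of all genes.

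Most genes of this cluster encode proteins with a KRAB domain and a row of C2H2 zinc fingers. The fingers bind DNA, often in transposable elements, and the KRAB domain binds TRIM28, which brings the methyltransferase SETDB1 and HP1 proteins and so lays down H3K9 trimethylation. The cluster grew by tandem duplication in primates, so most of its genes are close paralogs. Zinc finger genes themselves carry H3K9 trimethylation over their 3′ ends. BIX01294 inhibits the methyltransferases encoded by EHMT2 and EHMT1, which write H3K9 monomethylation and dimethylation. The arrays address how transcript levels differ after this inhibitor.

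The promoters of most of these genes resemble each other closely. Of the promoters, 8 are shown because they belong to genes that fell and to other members that were not called. RefSeq's table for GRCh38.p14 held windows of 300 bases, 250 before and 50 after the annotated start site, for 28 of the 36 genes. The 150 bases just before the start site are printed 5′ to 3′ on the gene's strand, with CCAAT boxes (either strand) and the ETS-type motif CTTCCGG in capitals. CCAAT is the letter sequence bound by the factor NF-Y. ZNF493 (chr19:21396983-21397132) and ZNF429 (chr19:21505452-21505601), both on the plus strand, were the genes with the largest falls. ZNF14 (chr19:19733113-19733262, minus strand), ZNF486 (chr19:20167064-20167213, plus strand) and ZNF91 (chr19:23395472-23395621, minus strand) also fell. ZNF714 (chr19:21082053-21082202, plus strand), ZNF431 (chr19:21141890-21142039, plus strand) and ZNF100 (chr19:21767580-21767729, minus strand) were not called.
ZNF493: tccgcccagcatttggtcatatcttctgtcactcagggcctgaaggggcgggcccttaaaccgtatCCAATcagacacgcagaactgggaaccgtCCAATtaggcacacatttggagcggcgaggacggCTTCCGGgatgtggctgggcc
ZNF429: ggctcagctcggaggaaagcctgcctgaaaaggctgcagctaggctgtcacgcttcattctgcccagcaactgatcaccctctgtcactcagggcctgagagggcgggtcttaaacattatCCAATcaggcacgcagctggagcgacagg
ZNF14: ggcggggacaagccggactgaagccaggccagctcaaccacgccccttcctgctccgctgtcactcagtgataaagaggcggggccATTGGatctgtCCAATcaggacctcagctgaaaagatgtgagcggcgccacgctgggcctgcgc
ZNF486: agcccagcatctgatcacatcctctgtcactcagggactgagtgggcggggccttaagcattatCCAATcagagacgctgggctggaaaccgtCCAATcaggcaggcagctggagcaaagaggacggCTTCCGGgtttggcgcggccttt
ZNF91: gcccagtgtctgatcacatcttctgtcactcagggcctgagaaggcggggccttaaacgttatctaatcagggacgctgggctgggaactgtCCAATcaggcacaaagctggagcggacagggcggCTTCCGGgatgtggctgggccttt
ZNF714: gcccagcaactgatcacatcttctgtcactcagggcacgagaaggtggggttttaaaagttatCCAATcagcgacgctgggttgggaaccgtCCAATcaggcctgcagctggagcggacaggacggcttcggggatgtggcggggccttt
ZNF431: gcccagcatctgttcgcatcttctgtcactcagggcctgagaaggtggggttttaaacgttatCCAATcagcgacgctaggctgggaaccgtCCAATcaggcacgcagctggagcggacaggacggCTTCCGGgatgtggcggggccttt
ZNF100: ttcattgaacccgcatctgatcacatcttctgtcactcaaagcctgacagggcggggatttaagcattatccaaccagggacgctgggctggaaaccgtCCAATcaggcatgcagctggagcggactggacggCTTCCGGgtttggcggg

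All 28 windows held the letters TCCAATCAG (both strands searched), against 0.886% of the 27305 promoter windows in the table and 11.3% of 168 windows of other chromosome 19 ZNF genes. The motif was chosen after the sequences were read, and each such match contains a CCAAT. The shorter motif CCAAT was in all 28 windows, in 35.8% of all windows and in 45.2% of the other chromosome 19 ZNF windows. In 25 of the 28, a CCAAT on the gene's strand began 58 to 51 bases before the start site, and in 17 another began 87 to 81 bases before it. In 18 genes a pair of neighbouring CCAAT boxes on the gene's strand lay 28 or 29 bases apart. CTTCCGG was in 20 windows (71.4%, against 10.7% of all windows and 37.5% of the other chromosome 19 ZNF windows). The letters TTGTCTCTC, also chosen after reading, were in 16 (57.1%, against 0.458% of all windows and none of the 168 other chromosome 19 ZNF windows).

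**Figure D1:**
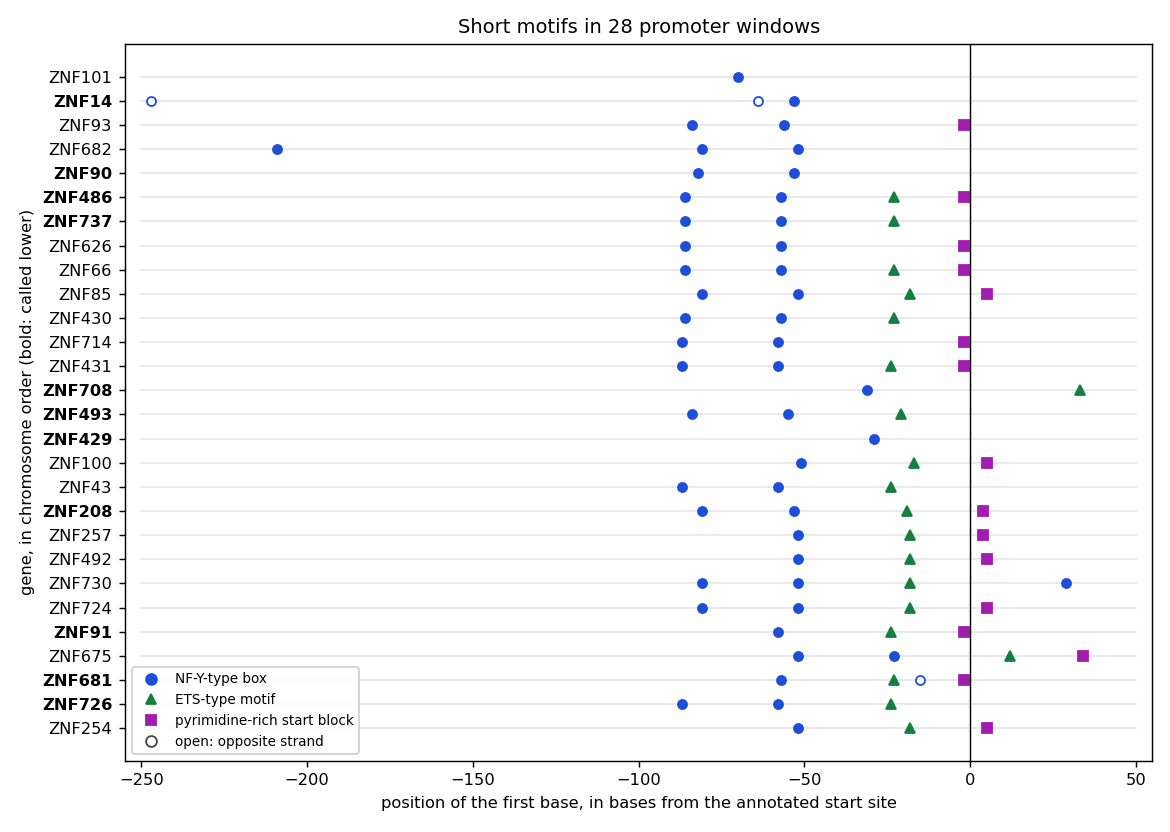
Position of short motifs in the 28 promoter windows, 1 gene per line in chromosome order, from 250 bases before to 50 bases after the annotated start site (line at 0). Circles are CCAAT (NF-Y-type) boxes, triangles CTTCCGG and squares TTGTCTCTC, open where on the opposite strand; bold names are genes called lower. CCAAT boxes on the gene's strand line up near the same position in 25 of 28 genes, whether or not the gene was called.

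Over the 378 pairs of windows the median identity after global alignment was 76.4%, and it ranged from 48.9% to 91.0%. The highest was that of the neighbours ZNF714 and ZNF431. Over 14028 pairs of other chromosome 19 ZNF genes the median was 50.4%. ZNF101 and ZNF14, at one end of the stretch, had no close relative: their nearest in the cluster matched at 56.7% and 56.6%. Each of the other 26 had a relative at 70% or more. By median identity with the other members, ZNF429 (55.7%) and ZNF708 (57.4%) lay near ZNF101 (54.0%) and ZNF14 (52.1%). ZNF429 and ZNF708 were each other's nearest relative, at 74.55%. Of the 28 windows 11 belong to genes called lower and 16 to genes tested and not called. CTTCCGG was in 8 of the 11 and 11 of the 16, and TCCAATCAG in all of both. TTGTCTCTC was in 4 of the 11 and 11 of the 16. These shares are a description, were not tested, and mark letters rather than bound sites.

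In BIX01294-treated cells 14 of the 33 genes fell and none rose (limma, adjusted p under 0.05 over all 18404 genes). In all genes tested 10.7% were called lower and 12.9% higher. The median log2 difference, BIX01294 minus DMSO, was -0.21 over the 33 genes and -0.01 over all genes, and 25 of the 33 lay below 0. The falls were modest: their median size was 0.44 on the log2 scale, 4 were 0.5 or more and none reached 1. Among these 4 was ZNF676, whose mean lay below the lower quartile of all genes. All 3 BIX01294 arrays lay below all 3 DMSO arrays in 19 of the 33 genes, against 18.7% of all genes, and in none did they lie above, against 21.4%. With 3 arrays against 3, an exact two-sided permutation test of a single gene cannot go below 0.10. At an unadjusted p under 0.05 in limma 20 genes were lower and 0 higher. In cells measured in bulk, fewer cells that express a gene and less RNA per cell cannot be told apart.

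The count moved with single arrays. Leaving out DMSO replicate 2 gave 8 and leaving out BIX01294 replicate 2 gave 9, with none called higher in either. Leaving out DMSO replicate 1 gave 10. Lower calls over all genes dropped too, from 1970 to 1384, 1652 and 1318 in these settings. The median difference of the 33 genes was then -0.18, -0.16 and -0.23. BIX01294 replicate 2 was the lowest of the treated arrays in 25 of the 33 genes, against 26.1% of all genes. Relative to the DMSO mean, the median of the 33 genes was -0.20, -0.33 and -0.12 in BIX01294 replicates 1, 2 and 3, where that of all genes was -0.03, 0.03 and -0.01. The part of replicate 2 in the result was not tested beyond leaving it out. Of the 14 calls, 8 held in every alternative that tested them: ZNF14, ZNF253, ZNF429, ZNF486, ZNF493, ZNF506, ZNF676 and ZNF737. ZNF676, with a mean below the lower quartile of all genes, was tested in 14 of the 16 alternatives, ZNF14 in 15 and the rest in all.

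**Figure D2:**
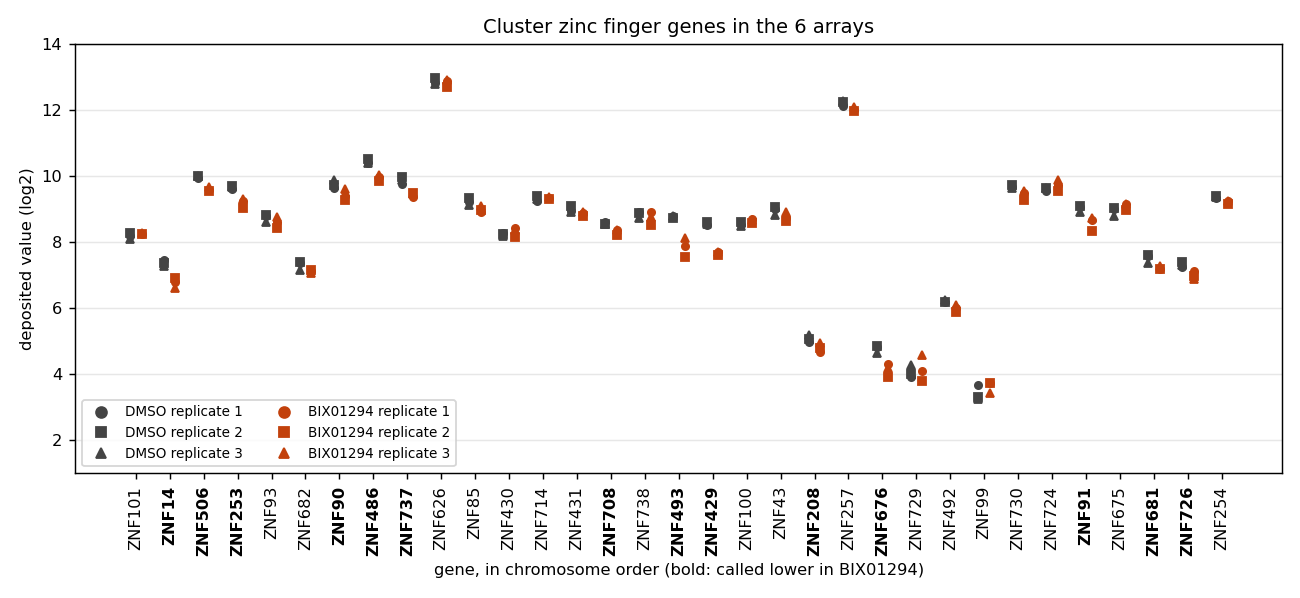
Deposited log2 value of each of the 33 genes in the 6 arrays, in chromosome order; grey symbols are DMSO and orange symbols BIX01294, with 1 symbol shape per replicate number, and bold names are genes called lower. In ZNF493 and ZNF429 the treated arrays lie well below the controls, and 4 genes (ZNF208, ZNF676, ZNF729, ZNF99) have means below the lower quartile of all genes.

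The largest falls were those of ZNF493 and ZNF429, which are neighbours in the list's chromosome order. ZNF493, a KRAB zinc finger gene, measured 8.80, 8.73 and 8.80 in the DMSO arrays and 7.88, 7.56 and 8.11 in the BIX01294 arrays. The treated arrays were all lower and spread more widely. The difference was -0.93 ± 0.123 (SE) on the log2 scale, a 1.90-fold fall (limma, adjusted p 0.00137). ZNF429 measured 8.50, 8.60 and 8.55 in DMSO and 7.71, 7.61 and 7.70 in BIX01294. The groups lay far apart next to their spread. Its difference of -0.88 ± 0.057 (SE), a 1.84-fold fall, had an adjusted p of 5.63e-05 in limma, the smallest of the cluster. ZNF738, just before this pair in that order, and ZNF100, just after it, were not called.

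Several genes near the ZNF101 end of the stretch fell, among others that were not called. ZNF14, whose product is known as a gonadotropin-inducible KRAB protein, measured 7.45, 7.35 and 7.27 in DMSO and 6.80, 6.91 and 6.62 in BIX01294, a 1.50-fold fall (adjusted p 0.00201 in limma). ZNF506 measured 9.94, 10.00 and 9.99 in DMSO and 9.59, 9.54 and 9.68 in BIX01294, a 1.29-fold fall. ZNF253, first described as a bone marrow zinc finger, measured 9.60, 9.71 and 9.66 in DMSO and 9.23, 9.04 and 9.31 in BIX01294, a 1.38-fold fall. In these 3 genes every treated array lay below every control array. ZNF486 measured 10.40, 10.51 and 10.41 in DMSO and 9.97, 9.86 and 10.02 in BIX01294, a 1.40-fold fall (adjusted p 0.00134 in limma). ZNF737 measured 9.77, 9.97 and 9.89 in DMSO and 9.38, 9.49 and 9.47 in BIX01294, a 1.35-fold fall. In ZNF486 and ZNF737 the arrays of each group lay close together and the groups did not overlap. ZNF90 measured 9.65, 9.73 and 9.88 in DMSO and 9.39, 9.28 and 9.60 in BIX01294, so that its highest treated array came close to its lowest control. Its fall of 1.25-fold had an adjusted p of 0.0393 in limma. The call did not hold when DMSO replicate 2 or 3, or BIX01294 replicate 1 or 2, was left out, nor with centring or array weights (highest adjusted p 0.115). ZNF101, ZNF93 and ZNF682, in the same run, were not called.

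Among genes whose products are known to repress transposable elements, ZNF91 fell and ZNF93 was not called. ZNF91, which represses SVA elements, measured 9.07, 9.09 and 8.91 in DMSO and 8.67, 8.34 and 8.74 in BIX01294. The treated arrays lay below the controls, with replicate 2 the lowest. The 1.36-fold fall had an adjusted p of 0.0195 in limma, and the call was lost without DMSO replicate 1 or 2 (highest adjusted p 0.0630). ZNF93, which represses L1 elements, measured 8.78, 8.82 and 8.61 in DMSO and 8.61, 8.43 and 8.76 in BIX01294, and the groups overlapped. Its difference was -0.14, with a 95% confidence interval from -0.35 to 0.08 and an adjusted p of 0.356.

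ZNF708, ZNF681 and ZNF726 also fell, with calls that single arrays could undo. ZNF708 measured 8.60, 8.54 and 8.53 in DMSO and 8.35, 8.21 and 8.35 in BIX01294, a 1.19-fold fall. The call went when DMSO replicate 1 or 2, or BIX01294 replicate 2, was left out (highest adjusted p 0.0690). ZNF681 measured 7.57, 7.61 and 7.35 in DMSO and 7.18, 7.18 and 7.28 in BIX01294, a 1.23-fold fall. That of ZNF681 went when replicate 1 or 2 of either treatment was left out, under quantile normalization and with the replicate block (highest adjusted p 0.0846). ZNF726 measured 7.26, 7.38 and 7.30 in DMSO and 7.13, 6.99 and 6.89 in BIX01294, a 1.24-fold fall. That of ZNF726 went when DMSO replicate 2, or BIX01294 replicate 2 or 3, was left out and under quantile normalization (highest adjusted p 0.0653). In all 3 genes the groups did not overlap, and the gap between them was narrow in ZNF681.

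**Figure D3:**
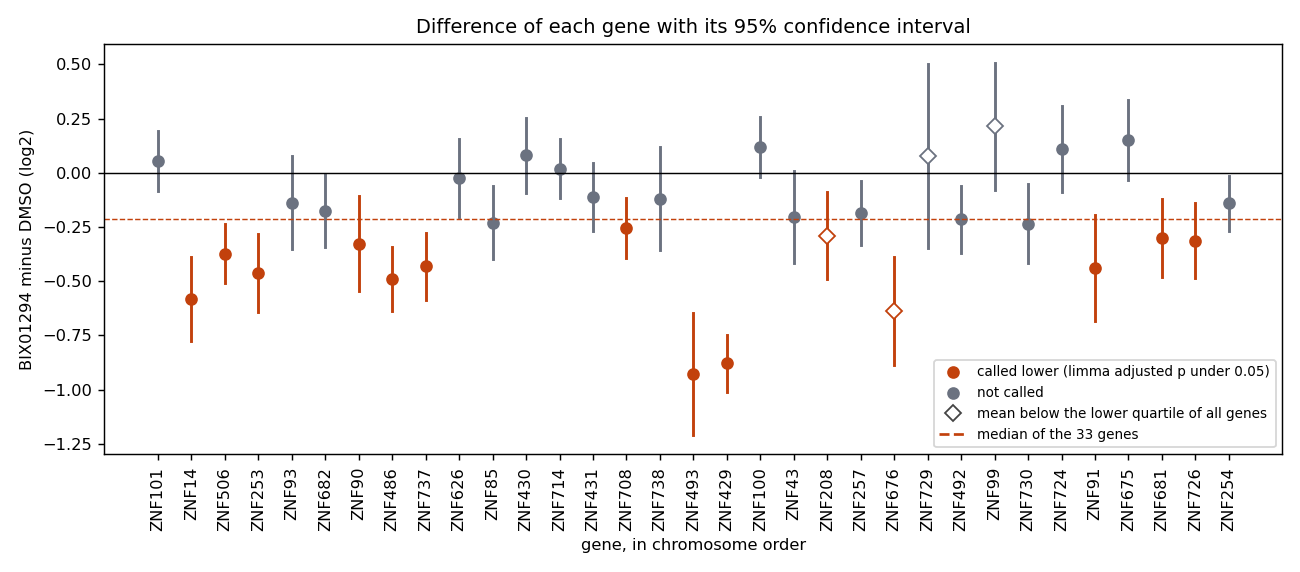
Log2 difference, BIX01294 minus DMSO, of the 33 genes in chromosome order with the 95% confidence interval from limma; orange genes were called lower, open diamonds have a mean below the lower quartile of all genes, and the dashed line is the median of -0.21. Called and not called genes are interspersed along the stretch, and ZNF493 and ZNF429 lie farthest below 0.

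The files carry no detection calls, and 4 genes had a mean below the lower quartile of all genes (5.99). For these dim genes background could not be told from signal and folds are left out. ZNF676 measured 4.82, 4.84 and 4.64 in DMSO and 4.31, 3.90 and 4.19 in BIX01294, and its difference of -0.64 ± 0.108 (SE) had an adjusted p of 0.00416 in limma. ZNF208 measured 4.99, 5.07 and 5.19 in DMSO and 4.66, 4.78 and 4.94 in BIX01294. Its groups almost touched. Its adjusted p of 0.0437 in limma rose above the threshold when any DMSO array, or BIX01294 replicate 1 or 2, was left out, with centring, array weights or the mean of its rows, and when all rows with a symbol were tested. ZNF729 differed by 0.08, with a 95% confidence interval from -0.35 to 0.50, and ZNF99 by 0.21, from -0.08 to 0.51. Neither was called, and the interval of ZNF729 allows a fall as large as that of ZNF90. Among the 29 other genes, 12 of the calls remained and the median was again -0.21. When limma was run only on genes at or above the lower quartile, 16 of the 29 were called lower, with ZNF85, ZNF257, ZNF492 and ZNF730 added. Lower calls over all genes were then 2147 of 13803, against 1970 of 18404 without the filter.

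The 19 genes not called had log2 differences from -0.23 to 0.21, 11 of them below 0 and 8 above. ZNF492, with an adjusted p of 0.0525, lay just outside the threshold and ZNF208 just inside it. In 5 of the 19 every treated array lay below every control array. These were ZNF85 (-0.23), ZNF254 (-0.14), ZNF257 (-0.19), ZNF492 (-0.21) and ZNF730 (-0.23). ZNF85, ZNF257 and ZNF730 were called lower with an intensity trend and robust estimation, where the cluster's count was 17. In that setting 2333 of all 18404 genes were called lower, against 1970 without it. ZNF43 differed by -0.21, ZNF682 by -0.18, ZNF738 by -0.12 and ZNF431 by -0.11.

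In the middle of the stretch ZNF430, ZNF714 and ZNF431 lie side by side and none was called. ZNF714 measured 9.24, 9.38 and 9.30 in DMSO and 9.34, 9.29 and 9.35 in BIX01294. The groups overlapped fully, and the confidence interval of -0.12 to 0.15 leaves out falls as large as that of ZNF708. ZNF430 differed by 0.08 (interval -0.09 to 0.25). ZNF100 measured 8.50, 8.60 and 8.50 in DMSO and 8.71, 8.58 and 8.66 in BIX01294, with an interval of -0.02 to 0.26. ZNF675, whose product binds the signalling adaptor TRAF6, measured 8.99, 9.02 and 8.80 in DMSO and 9.15, 8.97 and 9.14 in BIX01294, with an interval of -0.03 to 0.34. ZNF724 differed by 0.11 (-0.09 to 0.31) and ZNF101 by 0.05 (-0.09 to 0.19). The intervals of these 6 genes leave out a fall as large as that of ZNF493 or ZNF429.

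Probes of such close paralogs can share targets, and 4 genes with 2 rows show how far rows can differ. ZNF626 had a row at 12.80, 12.96 and 12.79 in DMSO and 12.87, 12.70 and 12.92 in BIX01294, which was used because it was brighter, and it was not called. Its other row measured 9.49, 9.46 and 9.48 in DMSO and 9.13, 8.92 and 9.03 in BIX01294. That row fell by 0.45 ± 0.064 (SE), with adjusted p = 0.00229 when limma was run on every single-symbol row. So for ZNF626 the call depended on the row, and which row reads the gene was not tested. ZNF257 also had rows far apart: the one used measured 12.11, 12.23 and 12.26 in DMSO and 12.00, 11.96 and 12.09 in BIX01294, and the other 3.11, 2.79 and 3.60 in DMSO and 3.40, 3.68 and 3.37 in BIX01294. Neither row of ZNF257 was called. Both rows of ZNF493 fell, with differences of -0.93 and -0.64, the second from 7.01, 6.71 and 6.81 to 6.26, 5.93 and 6.44. The dimmer row of ZNF208, whose SD over the BIX01294 arrays was 0.97 (n = 3), was too variable to show a difference of the size in its brighter row. With the dimmer row of each gene in place of the brighter, 14 genes fell, with ZNF626 in and ZNF208 out.

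**Figure D4:**
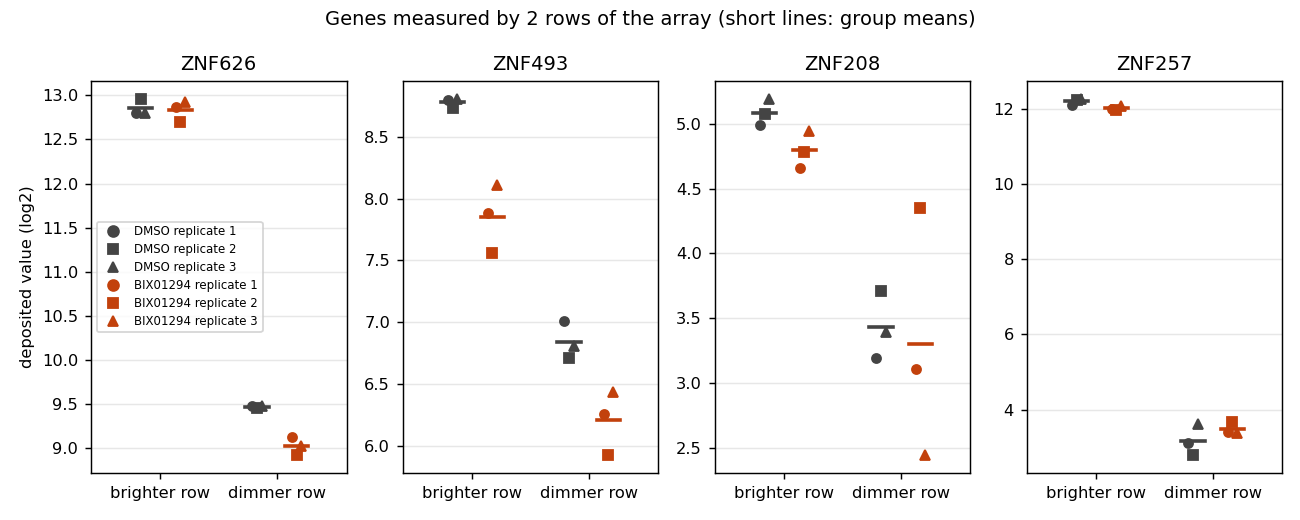
Deposited log2 values of the 4 genes with 2 rows on the array, brighter and dimmer row side by side, each panel with its own vertical scale; grey is DMSO, orange BIX01294, symbol shapes mark replicate numbers and short lines are group means. Both rows of ZNF493 are lower in BIX01294, only the dimmer row of ZNF626 is, and the rows of ZNF257 lie far apart in level.

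Of the 3 listed genes without a row of their own, ZNF98 and ZNF728 appear only in rows shared with other members, and ZNF66 is in no annotated row, so that only its promoter window was used. One row is annotated with 8 of the members at once, ZNF728 among them. It measured 10.71, 10.71 and 10.82 in DMSO and 10.74, 10.38 and 11.00 in BIX01294, and its treated arrays lay on both sides of the controls. The other is annotated with 3 members, ZNF98 among them. It measured 5.00, 5.08 and 5.26 in DMSO and 4.84, 4.80 and 4.93 in BIX01294, a difference of -0.26 ± 0.079 (SE) with adjusted p = 0.0530 when limma was run on every row with a symbol. Its treated arrays were all lower, and no value of either row was given to a single gene.

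Of 156 other RefSeq genes inside the stretch, 4 had a row tested here. ZNF826P, a transcribed zinc finger pseudogene that was not on the list, measured 7.21, 7.43 and 7.38 in DMSO and 6.92, 6.75 and 6.95 in BIX01294. It fell 1.38-fold, by an amount close to that of ZNF253, and kept its call in every alternative that tested it. RPSA2, a ribosomal protein gene copy whose probes may read its relatives, was dim and differed by 0.26, with a call that did not hold when DMSO replicate 2 or 3, or BIX01294 replicate 1 or 3, was left out, nor with an intensity trend and robust estimation (highest adjusted p 0.111 in limma). CCNYL6 and GOLGA2P9 differed by -0.08 and -0.01 and were not called.

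Falls were not limited to this cluster. Of 188 other ZNF genes of chromosome 19, 104 fell (55.3%) and 2 rose, with a median log2 difference of -0.30. In the 19p12 cluster the share that fell was 42.4% and the median -0.21. Of 218 ZNF genes on other chromosomes 35 fell (16.1%) and 13 rose, with a median of -0.03. That set lay nearer to all genes tested, of which 10.7% fell and 12.9% rose, with a median of -0.01. The 3 sets were described and not tested against each other, since they were chosen with results known.

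The corepressor list holds TRIM28 and proteins that work with it, writers, readers and erasers of H3K9 methylation, and ZNF274. Of its 33 genes 7 fell, 4 rose and 22 were not called, where 10.7% of all genes were called lower and 12.9% higher. The median difference was 0.01 over the list and -0.01 over all genes. TRIM28, the common corepressor, measured 9.93, 10.01 and 9.88 in DMSO and 10.08, 10.16 and 10.06 in BIX01294. Its treated arrays lay above the controls, but the difference of 0.16 ± 0.060 (SE) did not pass (adjusted p 0.0927 in limma). SETDB1, the methyltransferase that TRIM28 recruits, measured 9.48, 9.52 and 9.39 in DMSO and 9.01, 8.94 and 8.90 in BIX01294, a 1.43-fold fall. ATF7IP, its partner, measured 11.40, 11.38 and 11.37 in DMSO and 10.76, 10.84 and 10.82 in BIX01294, 1.49-fold lower (limma, adjusted p 0.000258). The groups of SETDB1 and of ATF7IP did not overlap. ZNF274, which brings SETDB1 to the 3′ ends of zinc finger genes, measured 8.12, 8.24 and 8.14 in DMSO and 7.60, 7.76 and 7.78 in BIX01294, a 1.37-fold fall.

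Other genes of the list that fell were the H3K9 demethylases KDM4A (2.01-fold) and KDM4B (1.18-fold), the deacetylase HDAC1 (1.30-fold) and MORC2, which works with the HUSH silencing complex (1.19-fold). MORC2 lost its call without DMSO replicate 1 or BIX01294 replicate 1, and KDM4B without DMSO replicate 1 (highest adjusted p 0.0598 and 0.0520 in limma). The genes that rose were the methyltransferases SUV39H1 (1.33-fold) and SUV39H2 (1.29-fold), CHAF1B, a subunit of the chromatin assembly factor (1.21-fold), and UHRF1, which reads H3K9 methylation (1.38-fold). UHRF1's second row differed by -0.09 and was not called, and its call was lost with the mean of both rows. The targets of the inhibitor, EHMT1 and EHMT2, differed by 0.11 and 0.00 and were not called. The HP1 genes CBX1, CBX3 and CBX5 differed by -0.08, 0.10 and -0.10 and were not called either. ATRX differed by -0.22 and was not called, while its second row was (-0.29, adjusted p 0.0209 in limma run on every single-symbol row).

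**Figure D5:**
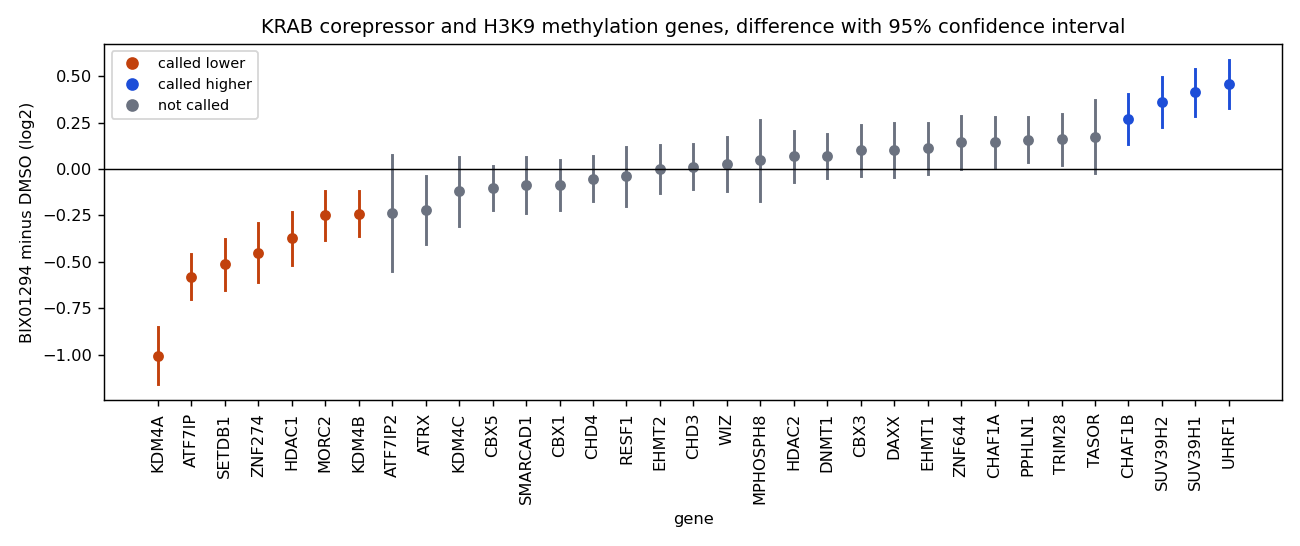
Log2 difference, BIX01294 minus DMSO, of the 33 corepressor and H3K9 methylation genes, sorted by size, with the 95% confidence interval from limma; orange genes were called lower, blue higher and grey not called. KDM4A, ATF7IP, SETDB1 and ZNF274 lie lowest and UHRF1 highest, while TRIM28 lies above 0 without a call.

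The arrays behind these values were alike in scale, with medians of 6.94 to 7.01 over all rows. Adrenergic neuroblastoma markers were bright, with means from 9.49 to 13.50 for the 7 of 8 measured, and 2 (PHOX2A, GATA3) were called lower and 1 (ISL1) higher. Their summed log2 values ran from 77.6 to 77.7 in DMSO and from 77.4 to 77.8 in BIX01294. Of 8 mesenchymal markers 1 (LUM) was called lower and 1 (CD44) higher. Their means ran from 5.3 to 9.9, with LUM the highest and PRRX1 and FN1 below the lower quartile of all genes. The mesenchymal sums ran from 57.1 to 57.5 in DMSO and from 57.0 to 57.8 in BIX01294. Of 4 Schwann-like markers 2 were measured, with means of 6.9 and 7.3, and S100B was called higher. Their sums ran from 13.8 to 14.1 in DMSO and from 14.4 to 14.5 in BIX01294. In all genes 23.6% were called in either direction. A sum can hide opposite moves, such as those of GATA3 (-0.23) and ISL1 (0.34). The part of these markers in the results was not tested.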

How the data were processed

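The deposited values, 1 per array row and sample, are described in the labels as RNA expression. Their range is that of log2 array values, and they were used as the authors deposited them. Partek is the only tool in the submitters' processing notes; how background was corrected and arrays normalized is not given in the sources used here. Precision is limited by having 3 arrays per group.

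The table has 32321 rows: 19158 carry exactly 1 symbol, updated through Entrez identifiers to RefSeq names (19128 matched); 1388 had several and 11775 had none in the annotation. The highest-mean row of each of 18404 genes was tested with limma 3.58.1 in R 4.3.3 (treatment as the only term, empirical Bayes, two-sided, Benjamini-Hochberg over all genes, threshold 0.05). This fit was tested on simulated data. Replicate arrays differed by a median of 0.083 to 0.116, so none was a copy of another. Promoters were aligned with Biopython 1.88.

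The members and lists were chosen with earlier results of these data known, the motifs TCCAATCAG and TTGTCTCTC after reading the promoters, and the lowest-mean row as an alternative after seeing the data. Values per array are given for called members, for ZNF626, ZNF257 and ZNF486, which had the highest means, and for named neighbours and corepressors; the other members with values per array were chosen after their values were seen. Alternatives were 2 scalings, 2 filters, other rows, 2 variance models, the replicate block and leaving out each array.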

Additional observations from a re-analysis of the deposited data

How the results depend on the processing

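Over 16 alternatives no gene of the cluster was called higher, and the number called lower ran from 8 to 15 when single arrays were left out and from 12 to 17 otherwise. It was 16 under quantile normalization and 12 with centring of each array, a scaling that raised the share of higher calls over all genes from 54.7% to 66.0%. The cluster's median difference ran from -0.26 to -0.16. All genes called numbered 3018 to 3663 without single arrays. Those called lower numbered 1318 to 1818 there and 1556 to 2333 in the other alternatives, against 1970. In the corepressor list, 5 to 7 fell and 4 rose without single arrays. When only genes at or above the median level were tested 8 rose, against 4. With an intensity trend and robust estimation 7 rose, and with centring 7. Higher calls over all genes also went up, from 2379 of 18404 to 2850 of 9202, 2991 of 18404 and 3015 of 18404 in these settings. In the first of them limma was fitted to the remaining genes alone. With centring the median difference of all genes moved from -0.0059 to 0.0329. The cause of the changes in count was not tested. UHRF1 turned to -0.0862 with its lowest-mean row, an alternative added after the data were seen.

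Both groups carry replicate numbers 1 to 3, but same-numbered arrays did not deviate together (correlations 0.19, -0.18 and 0.05), so the numbers were not taken as pairs. Between arrays of unlike number the correlations ran from -0.32 (DMSO 3, BIX01294 1) to 0.29 (DMSO 3, BIX01294 2). With the replicate block 13 genes of the cluster fell, and ZNF681 lost its call.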
